A study of Saccharomyces cerevisiae with 12 samples.

Results

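Transcript levels were compared between 3 cultures of a *Saccharomyces cerevisiae* strain lacking *BMH2* that had been held for 60 min in medium without added KCl and 3 cultures of the same strain kept at 50 mM KCl. These 6 libraries were taken by their labels from the 12 of the series. The other 6 came from a strain lacking *BMH1* and entered only an alternative fit. All libraries were of the haploid laboratory background BY4741 (MATa his3∆1 leu2∆0 met15∆0 ura3∆0), grown at 30 °C in Translucent YNB, a synthetic medium whose potassium content can be set, with leucine, histidine, methionine and uracil added. The deletion was carried by both groups, and a *BMH2* strain is not among the libraries compared, so the values describe what potassium withdrawal did in this mutant and not what the deletion did. According to the labels, an overnight culture at 50 mM KCl seeded a pair of cultures at 50 mM KCl, which were later washed, one with KCl and one without, and resuspended in the same medium. Whether the strain is 1 clone is not stated. Nothing states that the 3 replicates of a group began from separate overnight cultures, so p-values measure the spread between these samples, which may be technical.

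*BMH1* and *BMH2* encode the yeast 14-3-3 proteins, which bind phosphorylated partners in nutrient signalling, cell cycle control and stress responses. Potassium enters the cell mainly through the transporters Trk1 and Trk2, along a membrane potential that the proton pump Pma1 maintains, and Tok1 is an outward potassium channel. When phosphate runs short, the transcription factor Pho4 activates the PHO genes, among them *PHO84*, the high-affinity phosphate transporter gene, and *SPL2*, whose product restrains low-affinity phosphate uptake.

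RNA was measured by tag sequencing, in which a short tag beside the last CATG of each polyadenylated transcript is read and counted. Values are for 6053 genes, in reads per 1000000 reads of the library (RPM). The values of each library are whole multiples of 1 small step, and these steps total from 10353246 to 13766555 in the 6 libraries. The libraries are called C50, D50, E50, C0, D0 and E0 after their column headers, and values below are given in the order C, D, E for each concentration. The headers place C50, D50, E50 and C0 on sequencing lane 5, and D0 and E0 on lane 6. Across tested genes the correlation of log2 values ran from 0.933 to 0.98 within a group and from 0.854 to 0.912 between groups, with genes not independent of each other. A principal component holding 66.3% of the variance separated the concentrations, C0 included. The deleted *BMH2* was at 0.184, 0 and 0 RPM at 50 mM KCl and 0.291, 0 and 0 RPM at 0 mM KCl. *BMH1* was at 5175, 4276 and 4048 RPM at 50 mM KCl and 4679, 5391 and 5293 RPM at 0 mM KCl and its log2 difference of 0.19 ± 0.19 did not pass the test (adjusted p = 0.49). Here and below a difference is 0 mM minus 50 mM KCl and is followed by its standard error. All libraries were of bulk cultures, in which fewer cells of a type and less RNA per cell cannot be told apart.

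Withdrawing potassium moved transcripts in both directions across the genome. Genes reaching 3 RPM in 3 or more of the libraries were tested, 5086 in all, and 616 (12.1%) were higher and 638 (12.5%) lower at 0 mM KCl, by limma on log2(RPM + 1) with a Benjamini-Hochberg adjusted p under 0.05. Either call was made for 24.7% of the tested genes, and 1933 genes had an unadjusted p under 0.05. The median log2 difference was 1.19 among the genes that rose and -1.19 among those that fell, against 0.04 over all tested genes. Of the genes that rose, 428 did so by at least 1 on the log2 scale, 78 by at least 2 and 15 by at least 3, and of the genes that fell the same sizes were reached by 428, 95 and 22. The genes that rose made up 6.55% of all RPM at 50 mM KCl and 17.68% at 0 mM KCl, and those that fell went from 14.99% to 6.35%. The libraries of both concentrations did not overlap in 610 of the 616 genes and 637 of the 638, where 20.3% of all tested genes were higher in every 0 mM library and 20.7% were lower. Differences are on the log2(RPM + 1) scale throughout, which understates the change of genes near 0.

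**Figure D1:**
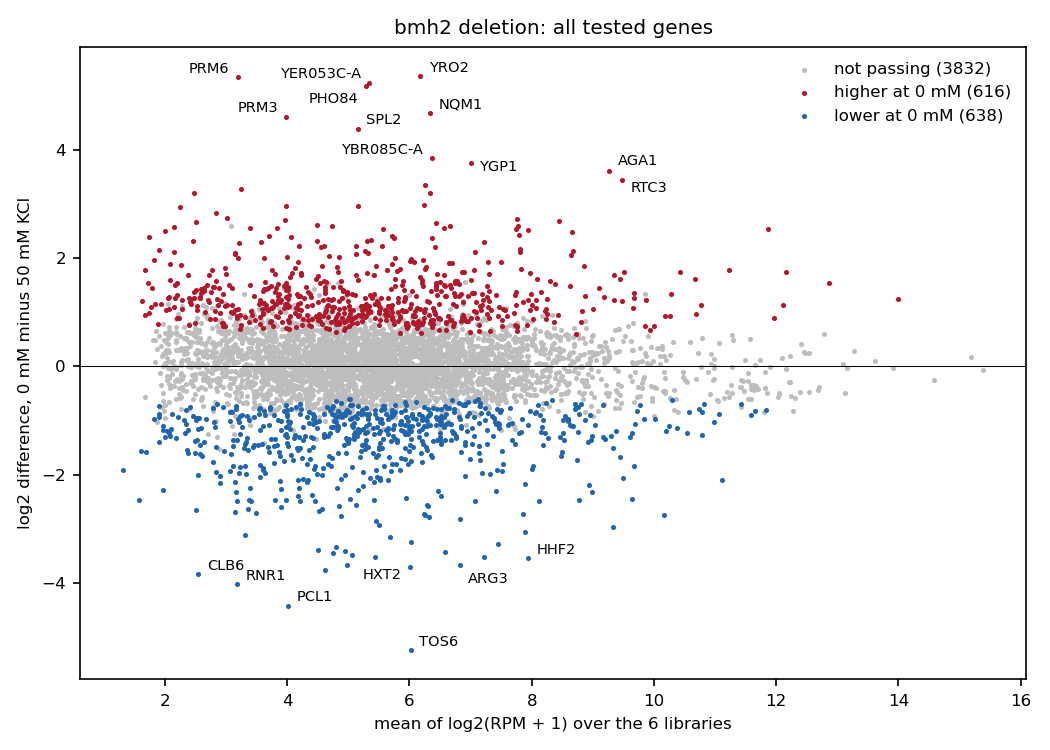
Each point is 1 of the 5086 tested genes, with its mean log2(RPM + 1) over the 6 libraries on the horizontal axis and its log2 difference, 0 mM minus 50 mM KCl, on the vertical axis. The 616 genes that rose and the 638 that fell are coloured, the 3832 that did not pass are grey, and the labelled genes reach both extremes at low as well as high RPM.

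The largest rises, by the rule that named the 15 at each end, belonged to a few recognisable groups. *YRO2* and *HSP30* encode related membrane proteins, *PHO84*, *SPL2* and *PHO5* belong to the PHO pathway, and *PRM6*, *PRM3* and *AGA1* belong to mating. *NQM1*, *YGP1*, *RTC3*, *GCY1* and *CIT3* encode proteins of stress, stationary phase and carbon metabolism. The remaining rises, *YER053C-A* (5.24) and *YBR085C-A* (3.84), are small open reading frames for which no role is given here. The 15 largest falls were in *TOS6*, *PCL1*, *RNR1*, *CLB6*, *TOS4*, *MCD1*, *HHF2*, *CLN2*, *HTA1*, *POL30*, *SWE1*, *HTB2*, *HXT2*, *ARG3* and *YLR413W*. *TOS6* encodes a cell wall protein and *HXT2* a glucose transporter, *ARG3* acts in arginine synthesis, no role is given here for *YLR413W*, and the other 11 act in the cell cycle, S phase or chromatin.

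Only 1 of the 0 mM libraries, C0, shared a lane with the 50 mM libraries, so concentration and lane overlap in D0 and E0. A fit with lane as a term therefore takes its difference from C0 alone against the 50 mM libraries. C0 also took part in the calls, and lay beyond every 50 mM library in all 616 and 638 called genes. The signs in that fit were thus fixed by the choice of genes and are no separate check. With lane as a term the estimated differences had the same sign for all 1254 genes and a median of 1.28 and -1.23, while their median standard error grew from 0.25 to 0.38 and from 0.24 to 0.37, and 194 genes rose and 194 fell. Of 299 named genes that passed, 155 did not pass with lane as a term. Fitting all 12 libraries gave 161 and 150, and leaving out single libraries gave as few as 255 higher, without C0, and 349 lower, without E50. Genes that did not pass in these fits are named below only in part.

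Of the genes of phosphate uptake, 2 of 9 tested rose and 1 fell, of the phosphatase genes 5 of 12 rose, and of the genes of polyphosphate synthesis and related SPX proteins 4 of 6 rose, with a median log2 difference of 1.24. *PHO84* (chrXIII:24037-25800, minus strand) was at 5.17, 6.07 and 5.41 RPM at 50 mM KCl and 253, 225 and 228 RPM at 0 mM KCl. Each 0 mM library exceeded the highest 50 mM library many times over, the means were 42.4-fold apart, and the log2 difference was 5.17 ± 0.19 (adjusted p = 3.5e-06). *SPL2* was at 6.83, 7.55 and 5.99 RPM at 50 mM KCl and 153, 193 and 143 RPM at 0 mM KCl, a log2 difference of 4.39 ± 0.21 (adjusted p = 6.9e-06). In the exact two-sided permutation test of the RPM, p was 0.1 for each of these genes, the smallest that 3 libraries against 3 allow.

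The secreted acid phosphatase gene *PHO5* was at 0.738, 1.09 and 0.676 RPM at 50 mM KCl and 25.5, 13.4 and 11.3 RPM at 0 mM KCl. It was close to 0 in all 3 libraries at 50 mM KCl and above 10 RPM in all 3 at 0 mM KCl, so it falls under the 3 RPM filter when any 0 mM library is left out. *PHO11*, a second acid phosphatase gene whose last tag is shared with *PHO12*, was at 1.20, 2.02 and 1.26 RPM against 17.6, 9.41 and 8.67 RPM. Inside the cell, the vacuolar alkaline phosphatase gene *PHO8* rose from 18.9 ± 3.66 RPM to 118 ± 43.4 RPM (SD, n = 3), and *PHM8*, which encodes a nucleotide phosphatase, rose from 9.45 ± 3.33 RPM to 49.7 ± 11.5 RPM. The polyphosphate synthase genes *VTC3* and *VTC4* rose by 2.00 ± 0.22 (adjusted p = 0.0004) and 1.52 ± 0.32 (adjusted p = 0.0094). *VTC1*, a further subunit, rose by 0.97 ± 0.21 but did not pass without library D50 (adjusted p = 0.054). Neither *VTC4* nor *VTC1* passed with lane as a term or with all 12 libraries (adjusted p = 0.15 and 0.22 in the latter). *PHO81*, whose product inhibits the Pho80-Pho85 kinase, was the only member of the PHO signalling list to rise, at 62.4, 50.8 and 43.9 RPM against 164, 123 and 182 RPM. The other 9 of the list's 10 tested members did not pass, and the 10% that rose was near the 12.1% of all tested genes. The low-affinity transporter gene *PHO90* changed by -1.34 ± 0.29 and did not pass without library E50 or C0 (adjusted p up to 0.053), while *PHO87* and *PHO91*, of the same class, were at 29.4, 40.6 and 52.2 RPM against 36.3, 54.2 and 31.4 RPM and 30.4, 36.3 and 25.2 RPM against 52.7, 25.4 and 72.96 RPM, overlapping between the groups.

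The promoter of *PHO84* is shown because its change was among the largest in the data. In RefSeq's R64 genome, CACGTG, the core of the site Pho4 binds, was searched in the 600 bp before each start codon. It was present in 7.28% of the promoters of tested genes, in 10.7% of those of genes that rose and in 6.44% of those of genes that fell. It was present in 7 of 9 uptake, 6 of 12 phosphatase and 6 of 6 polyphosphate genes. The word reads the same on both strands, and a match describes letters and not a bound site. The stretch below, on the gene's strand, runs from 467 to 378 bases before the start codon, with both sites in capitals.
*PHO84* (chrXIII:26178-26267, minus strand): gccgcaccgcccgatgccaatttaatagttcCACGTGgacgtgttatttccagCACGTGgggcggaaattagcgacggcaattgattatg

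Of 14 tested genes of potassium transport and its regulators, 2 rose (14.3%) and 1 fell (7.14%), shares near those of all tested genes, with a median log2 difference of 0.25. *TRK1* was at 38.4, 51.3 and 44.4 RPM at 50 mM KCl and 55.9, 42.3 and 58.5 RPM at 0 mM KCl and *TRK2* was at 10.9, 10.7 and 10.1 RPM against 10.5, 8.31 and 9.14 RPM. The groups overlapped for both transporter genes, with log2 differences of 0.22 ± 0.22 (adjusted p = 0.51) and -0.17 ± 0.21 (adjusted p = 0.59), and for the channel gene *TOK1* at 17.8, 10.7 and 11.5 RPM against 13.7, 8.97 and 19.2 RPM. *HAL1*, which encodes a protein of salt tolerance and intracellular potassium, rose from 4.70, 2.65 and 2.90 RPM to 27.8, 16.4 and 31.2 RPM. *VHS3*, whose product inhibits the phosphatase Ppz1, a negative regulator of the Trk transporters, rose by 1.40 ± 0.30 but did not pass without library E50 (adjusted p = 0.056). The vacuolar exchanger gene *VNX1* changed by -0.73 ± 0.22 and did not pass without library C50, D50, E50, C0 or D0 (adjusted p up to 0.18).

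Of 18 tested genes of sodium, proton and calcium pumps and their regulators 5 rose and 1 was lower, with a median of 0.57. *PMA1*, the proton pump gene, whose last tag is shared with *PMA2*, was at 2803, 3035 and 2929 RPM at 50 mM KCl and 5367, 4489.7 and 6638 RPM at 0 mM KCl. The ranges did not overlap, a log2 difference of 0.89 ± 0.20 (adjusted p = 0.012), although it did not pass without library C0 (adjusted p = 0.059). *PMP1*, a small regulatory subunit of the pump, rose from 17.4 ± 6.96 RPM to 88.5 ± 21.9 RPM (SD, n = 3), and *PTK2*, a kinase that activates the pump, rose by 1.08 ± 0.20 (adjusted p = 0.0054). *PMA1* and *PTK2* did not pass with lane as a term, nor did *PMA1* with all 12 libraries (adjusted p = 0.45). All 3 tested genes of the *HSP30* family rose. *HSP30*, which encodes a membrane protein known to restrain Pma1 under stress, was at 31.5, 19.00 and 28.2 RPM at 50 mM KCl and 283, 247 and 204 RPM at 0 mM KCl. Its relative *YRO2* was at 12.9, 10.1 and 8.31 RPM against 653, 442 and 346 RPM, the largest rise among the named genes at 5.36 ± 0.28 (adjusted p = 8.7e-06), and *MRH1*, abundant at both concentrations, was at 1819, 1139.7 and 1048 RPM against 4590.3, 3349.7 and 5817 RPM. Every library at 0 mM KCl was above every library at 50 mM KCl for each of the 3.

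Genes of mating rose, although the labels name no pheromone treatment. Of 36 tested genes of pheromone signalling and mating, 24 rose and 1 fell, with a median log2 difference of 1.22. This count was from 13 to 21 when each library was left out, lowest without C0, and 13 with lane as a term. *AGA1*, the anchor subunit of the a-agglutinin that joins mating cells, was at 156, 204 and 170.5 RPM at 50 mM KCl and 2229, 2756 and 1614 RPM at 0 mM KCl. The groups were far apart, a log2 difference of 3.60 ± 0.24 (adjusted p = 3.6e-05). *FUS1*, required for cell fusion, was at 12.8, 10.5 and 11.9 RPM against 117, 58.7 and 139 RPM. *PRM6*, a pheromone-regulated gene whose product is known to mediate potassium influx, was at 0.184, 0.701 and 0.483 RPM against 52.7, 51.9 and 67.9 RPM. *PRM3*, required for nuclear fusion, was at 1.66, 2.26 and 2.80 RPM against 62.7, 88.3 and 83.3 RPM, and *PRM1*, required for membrane fusion, was at 1.29, 0.701 and 0.29 RPM against 13.7, 6.54 and 19.2 RPM. All 3 were close to 0 at 50 mM KCl and detected in every 0 mM library, and all 3 likewise fall under the filter without any 1 of the 0 mM libraries. The exception was *KAR3*, a kinesin gene that also serves the mitotic spindle, which changed by -1.54 ± 0.21 (adjusted p = 0.0012), from 32.7, 25.9 and 30.9 RPM to 9.30, 8.82 and 10.6 RPM.

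All 8 tested genes of a-cell identity also rose, with a median log2 difference of 1.35. *MFA1*, an a-factor precursor gene, was at 3936, 4146 and 5177 RPM at 50 mM KCl and 11162, 13718 and 13600.3 RPM at 0 mM KCl. It was the most abundant of the 8 and rose by 1.54 ± 0.19 (adjusted p = 0.00073). *ASG7*, whose product acts on the pheromone receptor pathway, was at 30.9, 18.4 and 19.99 RPM against 133, 91.5 and 145 RPM, and *BAR1*, the protease that degrades α-factor, was at 58.3, 87.5 and 128 RPM against 273, 361 and 234 RPM. *STE6*, the a-factor exporter, and *AXL1*, a protease that matures it, rose by 1.45 ± 0.36 and 1.26 ± 0.29. Both depended on single libraries, since *STE6* did not pass without library E50 or C0 (adjusted p up to 0.089) and *AXL1* did not pass without library D50, E50 or C0 (adjusted p up to 0.065). With lane as a term 2 of the 8 passed.

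Markers of the other mating type were measured beside these. *SAG1*, the α-agglutinin, rose from 10.4, 11.2 and 8.21 RPM to 52.4, 35.2 and 63.7 RPM, while the α-factor genes and *STE3*, the a-factor receptor and a defining marker of α cells, stayed near 0. *STE3* was at 2.58, 1.01 and 1.06 RPM against 3.56, 2.65 and 4.26 RPM. The 4 α-cell markers of the table summed to 10.3 to 14.0 RPM at 50 mM KCl and 39.5 to 70.1 RPM at 0 mM KCl, and without *SAG1* to 2.12 to 3.23 RPM and 4.26 to 6.35 RPM. The 8 a-cell markers summed to 4743 to 6069 RPM and 13324 to 16203 RPM.

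The word TGAAACA, the site of the mating transcription factor Ste12, was searched on both strands in the same 600 bp windows. It was found in 14.4% of the promoters of tested genes, in 18% of those of genes that rose and in 14.5% of those of genes that fell. Among the mating genes that rose it was in 17 of 24, among all tested mating genes in 21 of 36, and among the a-cell genes in 8 of 8. A stretch of *PRM6*, from 198 to 109 bases before the start codon, and of *AGA1*, from 244 to 155 bases before it, are shown as examples among the larger rises of the list, with the word in capitals.
*PRM6* (chrXIII:181184-181273, minus strand): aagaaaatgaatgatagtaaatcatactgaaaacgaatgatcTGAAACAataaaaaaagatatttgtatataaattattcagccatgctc
*AGA1* (chrXIV:703455-703544, plus strand): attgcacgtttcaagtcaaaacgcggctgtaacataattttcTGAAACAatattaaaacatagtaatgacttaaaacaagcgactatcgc

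Transcripts of late G1, S phase and chromatin fell. The histone and late G1 lists had the lowest medians of the 58 lists. Of 25 tested genes of the G1 cyclins and late G1, 19 fell and 2 rose, with a median log2 difference of -2.47, and 12 to 19 fell when each library was left out, fewest without D50. The G1 cyclin gene *CLN2* was at 131, 152 and 158 RPM at 50 mM KCl and 11.2, 9.63 and 15.3 RPM at 0 mM KCl. The lowest 50 mM library was several times above the highest 0 mM library, a log2 difference of -3.52 ± 0.23 (adjusted p = 3.2e-05). *PCL1*, a cyclin of the Pho85 kinase, was at 65.8, 84.3 and 71.9 RPM against 2.25, 3.09 and 2.25 RPM, and *CLB6*, an S-phase cyclin, was at 13.7, 26.2 and 25.7 RPM against 0.508, 0.515 and 0.62 RPM. *RNR1*, the large subunit of ribonucleotide reductase, was at 30.5, 56.9 and 25.6 RPM against 1.31, 1.40 and 1.08 RPM. *CLB6* and *RNR1* were close to 0 at 0 mM KCl and fall under the filter without any 1 of the 50 mM libraries. The cohesin gene *MCD1* changed by -3.67 ± 0.25, the late G1 gene *TOS4* by -3.75 ± 0.25, and the kinase gene *SWE1*, which delays entry into mitosis, by -3.44 ± 0.32. *CLN3*, the cyclin that acts earliest in G1, was higher, from 133, 122 and 106 RPM to 247, 269.9 and 257 RPM, but did not pass with lane as a term (adjusted p = 0.089) or with all 12 libraries (adjusted p = 0.63). *PCL9* was higher by 0.79 ± 0.22 and did not pass without library D50, E50, C0 or E0 (adjusted p up to 0.14).

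Of 7 tested histone genes 6 fell, with a median of -2.74. The histone H4 gene *HHF2* was at 605, 797 and 1217 RPM at 50 mM KCl and 54.6, 87.9 and 74.4 RPM at 0 mM KCl, and the H2B gene *HTB1*, the most abundant of the list, fell from 2979 ± 273 RPM to 458 ± 140.4 RPM (SD, n = 3). Near-identical histone copies may share reads in the authors' counting, and *HHF2* and *HTA1* have no CATG in their coding sequence. The linker histone gene *HHO1*, which has no close copy, was at 205, 188 and 174 RPM against 35.7, 27.5 and 30.6 RPM. Of 43 tested genes of DNA replication and cohesion 17 fell (6 with lane as a term) and 2 rose, with a median of -0.70. *POL30*, the sliding clamp of DNA replication, was at 129.5, 105 and 99.5 RPM against 9.59, 6.03 and 12.5 RPM, and *CDC45*, of the replicative helicase, was at 17.5, 22.5 and 21.2 RPM against 2.47, 2.79 and 3.18 RPM. *POL1*, the catalytic subunit of DNA polymerase α, changed by -2.39 ± 0.22 (adjusted p = 0.00016) and the flap nuclease gene *RAD27* by -2.24 ± 0.25 (adjusted p = 0.00048). The 2 that rose, *ORC5* and *ORC6* of the origin recognition complex, were higher by 0.89 ± 0.20 and 0.68 ± 0.21, and neither passed without D50 (adjusted p = 0.062 and 0.16).

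Of 20 tested genes of G2 and mitosis 8 fell and 1 was higher, with a median of -0.53. *PDS1*, the securin gene, was at 40.95, 59.4 and 43.3 RPM against 9.30, 13.9 and 4.34 RPM, and the bud-neck gene *BUD4* was at 54.6, 81.8 and 116 RPM against 12.9, 20.4 and 17.1 RPM. *CLB1*, a mitotic cyclin gene, changed by -1.25 ± 0.26 (adjusted p = 0.0093). *CDC20*, the activator of the anaphase-promoting complex, was higher by 0.79 ± 0.22 and did not pass without library D50, E50, C0 or E0 (adjusted p up to 0.13). Of 13 tested genes expressed between mitosis and G1, none fell and 3 were higher. This count was 1 to 4 when each library was left out, and these genes did not pass with lane as a term. *RME1*, a repressor of meiosis, rose from 222, 211 and 191 RPM to 433, 489 and 363 RPM, but did not pass with all 12 libraries (adjusted p = 0.14). *AMN1* and *DSE1* were higher by 0.76 ± 0.18 and 1.04 ± 0.32. *AMN1* did not pass without library D50, E50 or C0 (adjusted p up to 0.083), and *DSE1* did not pass without library C50, E50, C0 or E0 (adjusted p up to 0.16). Among the 8 reference genes, often used as controls, the tubulin genes *TUB1* and *TUB2* changed by -1.33 ± 0.27 and -1.21 ± 0.19, while *ACT1* was at 1791, 2164 and 1849.8 RPM against 2084, 1989 and 1868 RPM and did not pass.

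The words ACGCGT, bound by MBF, and CGCGAAA, bound by SBF, were searched on both strands. Both factors drive late G1 transcription. The words each contain CGCG but can overlap only by an end base. The MBF word ACGCGT was in 6.52% of the promoters of tested genes, in 3.79% of those of genes that rose and in 17% of those of genes that fell, and CGCGAAA in 6.54%, 3.46% and 17.3%. Of the replication genes that fell 15 of 17 held ACGCGT, and of the late G1 genes that fell 8 of 19 held ACGCGT and 9 of 19 CGCGAAA. Whatever their call, 24 of 43 replication genes held ACGCGT, and of the late G1 genes 8 of 25 held ACGCGT and 11 of 25 CGCGAAA. *CLN2* held no CGCGAAA in its window. The stretches below carry pairs of these words, in capitals, in genes of the 15 largest falls, ACGCGT in *RNR1* (381 to 292 bases before the start codon) and *CLB6* (432 to 343), and CGCGAAA or its reverse complement in *PCL1* (340 to 251) and *SWE1* (324 to 235).
*RNR1* (chrV:298569-298658, plus strand): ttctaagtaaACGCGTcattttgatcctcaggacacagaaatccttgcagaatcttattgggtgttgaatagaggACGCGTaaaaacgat
*CLB6* (chrVII:706844-706933, minus strand): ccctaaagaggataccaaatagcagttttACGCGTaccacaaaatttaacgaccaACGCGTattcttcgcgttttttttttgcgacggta
*PCL1* (chrXIV:87557-87646, plus strand): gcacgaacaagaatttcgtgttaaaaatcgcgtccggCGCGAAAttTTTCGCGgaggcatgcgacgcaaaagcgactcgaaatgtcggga
*SWE1* (chrX:79497-79586, minus strand): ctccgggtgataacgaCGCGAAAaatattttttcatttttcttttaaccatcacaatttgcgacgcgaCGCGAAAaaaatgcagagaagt

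**Figure D2:**
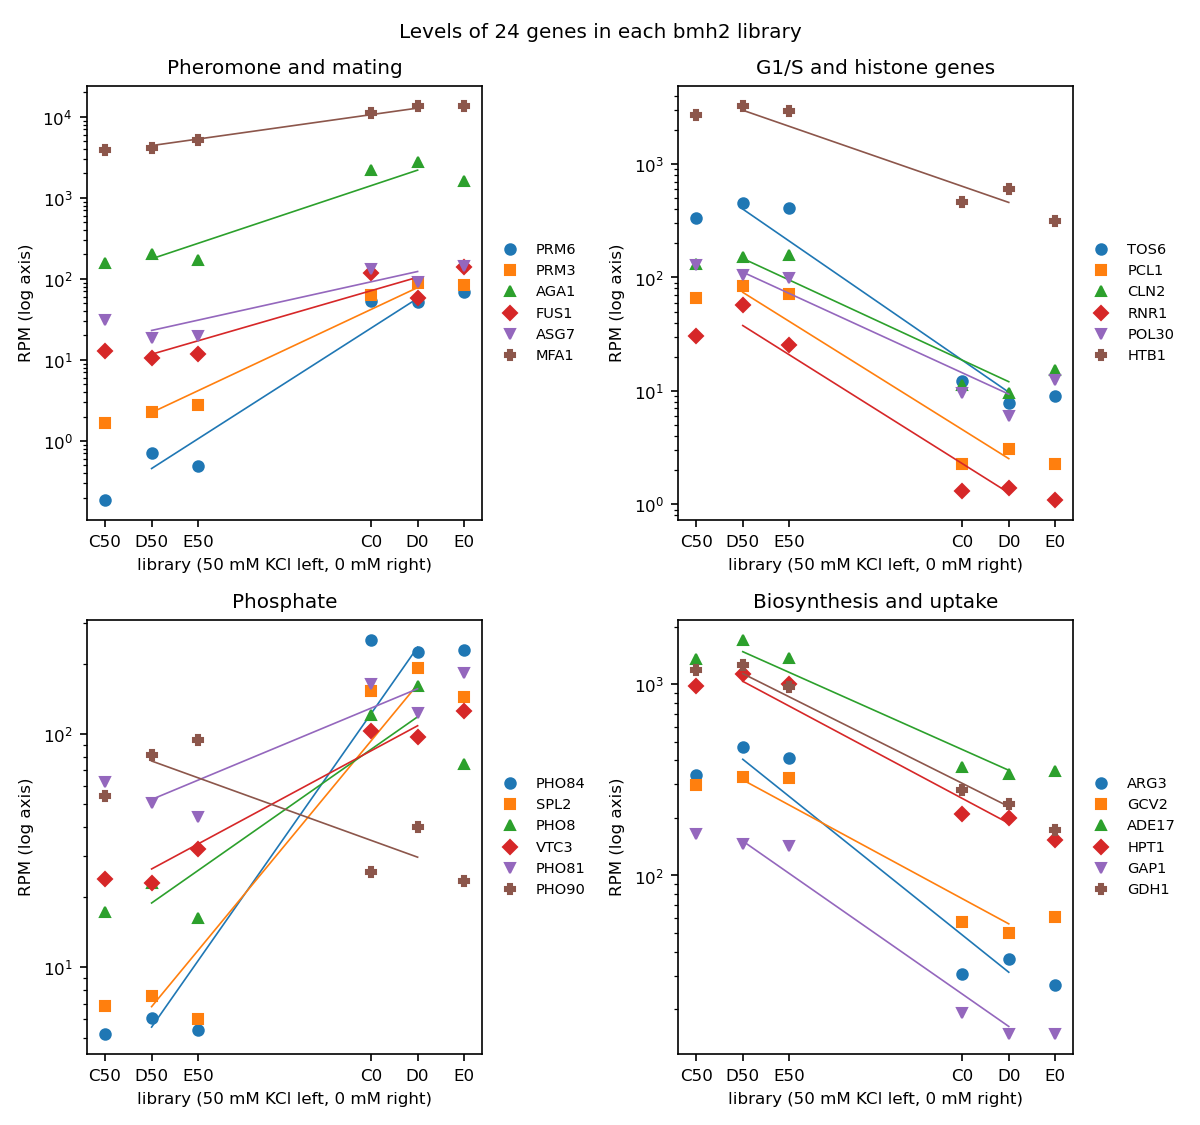
RPM of 24 genes in each library on a log axis, in 4 panels by function, with 1 point per library and lines joining the group means at 50 and 0 mM KCl. The 3 libraries of a group lie close together for most genes, and *CLN2*, for example, went from 147 ± 14.2 RPM to 12.1 ± 2.95 RPM (SD, n = 3).

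Of 24 tested genes of purine synthesis 12 fell and 2 rose, with a median log2 difference of -0.99, and 10 to 13 fell when each library was left out and 8 with lane as a term. *ADE17*, which catalyses the last steps to inosine monophosphate, was at 1355, 1706 and 1372 RPM at 50 mM KCl and 371, 341 and 352 RPM at 0 mM KCl. The groups were well separated, a log2 difference of -2.05 ± 0.19 (adjusted p = 0.00018). *ADE8* was at 546, 719 and 719 RPM against 107, 179 and 82.95 RPM, and the salvage gene *HPT1* was at 975, 1127 and 1000.3 RPM against 211, 199 and 153 RPM. *IMD3*, at the branch to guanine nucleotides, changed by -1.92 ± 0.18 (adjusted p = 0.00019) and *ADE12*, at the branch to adenine nucleotides, by -2.16 ± 0.26 (adjusted p = 0.00062). The genes that rose were *PRS3*, a phosphoribosyl pyrophosphate synthetase gene, at 54.6, 31.3 and 37.96 RPM against 179, 77.8 and 219 RPM, and the guanine deaminase gene *GUD1* at 17.1, 7.55 and 12.4 RPM against 47.8, 47.3 and 58.9 RPM.

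Of 17 tested genes of one-carbon and glycine metabolism 7 fell and 1 rose, and 4 to 7 fell when each library was left out, fewest without D50. *GCV2*, a subunit of glycine decarboxylase, was at 299, 326 and 322 RPM at 50 mM KCl and 56.8, 50.3 and 60.5 RPM at 0 mM KCl. *GCV3*, a further subunit, changed by -1.50 ± 0.20 and the folate dehydrogenase gene *MTD1* by -2.01 ± 0.19. *GLY1*, which makes glycine from threonine, rose from 27.1, 38.6 and 40.3 RPM to 68.1, 86.9 and 69.01 RPM. Of 11 tested genes of pyrimidine synthesis 6 were higher and 1 lower, 3 to 5 were higher when each library was left out, fewest without D50, and 1 was higher with lane as a term. *URA1*, dihydroorotate dehydrogenase, was at 409, 283 and 315 RPM against 1046, 714 and 985 RPM, and *URA2*, which catalyses the first steps, rose by 1.05 ± 0.20 (adjusted p = 0.0059, but 0.079 with lane as a term). The strain lacks *URA3*, was given uracil, and had no more than 0.193 RPM of that gene in any library. *FUR4*, the uracil permease gene, rose by 1.09 ± 0.23 (adjusted p = 0.0096, but 0.19 with lane as a term).

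Of 14 tested genes of arginine and ornithine metabolism 5 fell, 2 were higher and 7 did not pass, with a median log2 difference of -0.18. Among those that fell were the synthesis genes *ARG3*, *ARG1*, *ARG5,6* and *ARG8*. *ARG3*, ornithine carbamoyltransferase, was at 336, 469 and 409 RPM at 50 mM KCl and 30.4, 36.5 and 26.6 RPM at 0 mM KCl, and *ARG1*, the most abundant of them, was at 2556, 1724 and 1294 RPM against 246, 135 and 359.7 RPM. *ARG5,6* and *ARG8*, of ornithine synthesis, changed by -3.04 ± 0.24 (adjusted p = 7.6e-05) and -2.74 ± 0.37 (adjusted p = 0.0011). *CAR2*, which degrades ornithine, rose from 26.7, 17.6 and 18.6 RPM to 104, 89.5 and 108 RPM, while the arginase gene *CAR1* was higher by 0.73 ± 0.23 and did not pass without library C50, D50, E50, C0 or D0 (adjusted p up to 0.16). Of 25 tested genes for lysine, histidine and branched-chain amino acids 8 fell and 2 rose, and 4 to 10 fell when each library was left out, fewest without E50. *LEU9* was at 116, 129 and 207 RPM against 36.4, 39.8 and 63.6 RPM, and *ILV1*, threonine deaminase, changed by -1.36 ± 0.21 (adjusted p = 0.0019). Among the other amino acids, 5 of 28 tested genes fell (2 without D50) and 1 rose, with a median of -0.12. The share that fell was 17.9%, against 12.5% of all tested genes. *ASN1*, asparagine synthetase, was at 575, 857 and 946 RPM against 219, 281 and 208 RPM.

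Sulfur assimilation and methionine genes were more often higher, 7 of 25 against 2 lower, but this count was 2 to 9 when each library was left out, lowest without C50. *MET14*, adenylylsulfate kinase, was at 65.8, 45.2 and 43.4 RPM at 50 mM KCl and 145, 112 and 178 RPM at 0 mM KCl, and *MET28*, a transcription factor subunit of the pathway, was at 13.4, 13.1 and 11.7 RPM against 41.6, 48.1 and 28.7 RPM. Both passed in every fit that left out 1 library, unlike *MET10* (1.27 ± 0.40), which did not pass without library C50, D50, E50, C0 or E0 (adjusted p up to 0.16). *MET14* did not pass with lane as a term or with all 12 libraries (adjusted p = 0.44 in the latter), while *MET28* passed in both.

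Of 23 tested genes of ammonium and nitrogen metabolism 8 fell and 3 were higher (4 to 8 fell when each library was left out, fewest without D50), and of 20 permease genes 7 fell and 1 was higher. *GDH1*, which assimilates ammonium into glutamate, was at 1181, 1252 and 971 RPM at 50 mM KCl and 279, 236 and 172 RPM at 0 mM KCl. *MEP1*, an ammonium permease gene, and *GAT1*, an activator of nitrogen catabolite genes, changed by -1.91 ± 0.25 (adjusted p = 0.00086) and -1.49 ± 0.19 (adjusted p = 0.00073). *GAP1*, the general amino acid permease, was at 164, 147 and 143 RPM against 19.2, 14.8 and 14.8 RPM, and *AGP1*, of broad specificity, was at 265, 175 and 194 RPM against 34.00, 20.3 and 37.4 RPM. *BAP3* and *TAT1*, for branched-chain and aromatic amino acids, changed by -1.70 ± 0.30 and -1.66 ± 0.21. *UGA2*, which degrades γ-aminobutyrate, rose from 69.5, 62.99 and 112 RPM to 273, 458 and 222 RPM. The permease count was 7 or 8 when each library was left out.

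TGACTC, the shared core of the sites of Gcn4, which drives amino acid synthesis, and of Bas1, which drives purine and one-carbon genes, was searched on both strands, where it reads GAGTCA on the other. It was in 15.9% of the promoters of tested genes, 14.2% of those of genes that rose and 17.7% of those of genes that fell. Within the lists it was in 9 of the 11 purine genes that fell and had a promoter window, 6 of 7 one-carbon genes that fell, and 12 of 13 arginine genes whatever their call. Over all calls, 12 of 23 purine and 11 of 17 one-carbon genes held it. *GCV2*, which holds 4 such words 307 to 218 bases before its start codon, and *ADE17*, with 1 in the stretch 219 to 130 bases before it, are shown with the words in capitals.
*GCV2* (chrXIII:637193-637282, plus strand): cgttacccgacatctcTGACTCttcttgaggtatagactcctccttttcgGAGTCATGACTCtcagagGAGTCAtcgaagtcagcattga
*ADE17* (chrXIII:509410-509499, minus strand): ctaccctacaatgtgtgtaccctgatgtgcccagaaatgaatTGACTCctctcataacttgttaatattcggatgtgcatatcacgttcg

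Of 64 tested genes of the large ribosomal subunit 10 fell (15.6%, near the 12.5% of all tested genes) and 1 was higher, with a median log2 difference of -0.45, and of 46 of the small subunit 12 fell (26.1%), with a median of -0.43. These counts of falls were 1 to 13 and 4 to 16 when each library was left out, both fewest without D50, and 1 and 3 with lane as a term. *RPL18B* was at 432, 633 and 771 RPM at 50 mM KCl and 73.7, 115 and 82.7 RPM at 0 mM KCl, and *RPS26B* was at 52.5, 60.3 and 62.2 RPM against 6.68, 11.6 and 8.06 RPM. Both are copies of paired genes whose tags may be divided between the copies in the authors' counting. *RPS22B* changed by -1.45 ± 0.28 (adjusted p = 0.0066). Of 132 genes of ribosome biogenesis and RNA polymerases I and III 10 fell (4 without C0) and 3 were higher, shares below those of all tested genes, and the median was -0.01. *DBP2*, an RNA helicase gene, was at 545, 480.3 and 611 RPM against 44.2, 46.5 and 82.95 RPM, and *SFP1*, an activator of ribosome genes, rose from 17.9, 14.3 and 16.3 RPM to 44.7, 69.2 and 40.5 RPM. Of 66 tested genes of the mitochondrial ribosome 5 fell (7.58%, below the 12.5% of all tested genes) and none rose, and none fell in the fit without D50.

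Of 38 tested proteasome genes 2 were higher (5.26%, against 12.1% of all tested genes), with a median of 0.51, and none passed without D50. Of 10 genes of vacuolar proteolysis 3 rose, but these did not pass with lane as a term. *PRB1*, vacuolar protease B, was at 46.2, 39.4 and 58.1 RPM at 50 mM KCl and 163, 246 and 97.1 RPM at 0 mM KCl, and *LAP4*, an aminopeptidase delivered to the vacuole, rose by 1.19 ± 0.25 (adjusted p = 0.0088). *VMA8*, a subunit of the vacuolar proton pump, was the only one of 13 pump genes to pass. It fell from 15.5, 15.1 and 20.4 RPM to 3.63, 3.68 and 4.65 RPM, a share of 7.69% against 12.5% of all tested genes. Of 26 autophagy genes 5 were higher (19.2%, against 12.1% of all tested genes) and none fell. However, none passed without C0, and the lipase gene *ATG15* then had too few values to be tested.

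Chaperone and general stress genes rose in part. Of 49 tested genes of heat shock proteins and chaperones 17 rose and 1 fell, with a median of 0.35, and of 32 general stress and quiescence genes 15 rose and none fell, with a median of 0.84. Their counts were 12 to 19, lowest without D50, and 6 to 16, lowest without C0, when each library was left out, and 8 and 4 with lane as a term. *HSP104*, the disaggregase, was at 282, 189 and 272 RPM at 50 mM KCl and 979, 910.1 and 768 RPM at 0 mM KCl. *SSC1*, the mitochondrial Hsp70, was at 194, 98.3 and 131 RPM against 835, 549 and 1491 RPM, and *HSP82*, which encodes Hsp90 and may share tags with *HSC82*, was at 157, 186 and 248 RPM against 886, 1194 and 578 RPM. *HSP42* and *SSA4* rose by 2.12 ± 0.34 (adjusted p = 0.0028) and 1.90 ± 0.37 (adjusted p = 0.0069). Among the stress genes *NQM1*, a transaldolase of stationary phase, was at 21.8, 11.2 and 13.8 RPM against 484, 411 and 344 RPM, and *YGP1*, a secreted glycoprotein of nutrient limitation, was at 45.8, 23.05 and 36.5 RPM against 563, 391 and 472 RPM. No 0 mM library of *NQM1*, *YGP1* or *HSP104* fell within the 50 mM range. *GRE3*, an aldose reductase gene, rose by 1.69 ± 0.19 (adjusted p = 0.00051).

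Genes of storage sugars and glycerol rose in part. Of 7 tested trehalose genes 5 rose, with a median of 1.20, and 2 to 6 did so when each library was left out, fewest without C0. *TPS1*, trehalose 6-phosphate synthase, was at 79.3, 89.1 and 107 RPM at 50 mM KCl and 296, 270.4 and 211 RPM at 0 mM KCl, and *NTH1*, which degrades trehalose, was at 185, 112 and 125 RPM against 488, 304 and 634 RPM. *TSL1*, a regulatory subunit of the synthase, rose by 1.20 ± 0.32 but did not pass without library D50, E50 or C0 (adjusted p up to 0.098). Of 18 glycogen genes 3 were higher (16.7%, near the 12.1% of all tested genes), and 1 to 6 when each library was left out. Of these *GLC8*, a regulator of the phosphatase Glc7, rose from 195, 128 and 161 RPM to 377, 481 and 353 RPM. *GLC8* passed in every fit that left out 1 library but not with lane as a term. Of 14 glycerol genes 6 rose and none fell. *GPD1*, which commits carbon to glycerol, was at 84.95, 89.2 and 72.5 RPM against 263, 184 and 197 RPM, *GCY1*, a glycerol dehydrogenase gene, was at 40.5, 11.8 and 25.3 RPM against 250.3, 120.5 and 477 RPM, and *DAK1*, dihydroxyacetone kinase, rose by 1.31 ± 0.21 (adjusted p = 0.0025).

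Of 36 genes of defence against superoxide and peroxide 9 rose and 2 were lower, and 6 to 11 rose when each library was left out, fewest without D50. *PRX1*, a mitochondrial peroxiredoxin, was at 114, 70.1 and 84.03 RPM at 50 mM KCl and 505, 473 and 569.8 RPM at 0 mM KCl. *SRX1*, which repairs peroxiredoxins, rose by 1.96 ± 0.30 (adjusted p = 0.0022) and the mitochondrial superoxide dismutase gene *SOD2* by 1.34 ± 0.22 (adjusted p = 0.0031). The thioredoxin gene *TRX1* changed by -0.71 ± 0.21 and did not pass without library D50, E50, C0 or E0 (adjusted p up to 0.17). AGGGG, bound by the stress factors Msn2 and Msn4, was in 40% of the promoters of tested genes, 48.9% of those of genes that rose and 32.8% of those of genes that fell. It was in 13 of the 15 general stress genes and all 5 of the trehalose genes that rose, and so short a word recurs often. Whatever their call, 24 of 32 general stress genes and 6 of 7 trehalose genes held it.

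Genes of mitochondrial energy metabolism rose in part. Of 33 tested genes of the citric acid cycle and retrograde response 10 rose and 3 fell, and of 36 respiratory genes 11 rose and 1 fell, with a median of 0.57. The rises numbered 6 to 12 and 4 to 14 when each library was left out, both fewest without D50, and 5 in each list with lane as a term. *CIT2*, the peroxisomal citrate synthase and a marker of the retrograde response, was at 755, 785 and 716 RPM at 50 mM KCl and 2447, 2386 and 2737 RPM at 0 mM KCl. *PYC1*, pyruvate carboxylase, was at 148, 239.6 and 212 RPM against 798, 1115 and 603 RPM, and *PYC2*, the second such gene, moved the opposite way, at 284, 343 and 417 RPM against 136, 174 and 138 RPM. *CIT3* was near 0 at 50 mM KCl and rose by 3.28 ± 0.28 (adjusted p = 0.0001). In the respiratory chain *COX13*, of cytochrome c oxidase, was at 438, 329.8 and 356 RPM against 919, 951 and 865 RPM, and *NDI1*, the internal NADH dehydrogenase, rose by 1.27 ± 0.26 (adjusted p = 0.0086) while *NDE1*, an external one, fell from 159, 100.3 and 122 RPM to 41.04, 34.8 and 47.9 RPM.

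Of 12 tested pentose phosphate genes 5 rose and 1 fell. *ZWF1*, glucose 6-phosphate dehydrogenase and the entry to the pathway, was at 31.9, 28.7 and 35.4 RPM at 50 mM KCl and 112, 129 and 151 RPM at 0 mM KCl, and *TKL2*, a minor transketolase, was at 6.73, 4.52 and 4.44 RPM against 46.8, 28.01 and 44.4 RPM. *RPE1*, ribulose 5-phosphate epimerase, changed by -1.86 ± 0.24 (adjusted p = 0.00087). Of 22 glycolysis genes 4 were higher (18.2%, against 12.1% of all tested genes), among them *TDH1* (2.59 ± 0.60). None of the 4 passed without C0. *TDH1*, a glyceraldehyde 3-phosphate dehydrogenase gene, was at 180.4, 31.5 and 117 RPM against 661, 297 and 778 RPM, and its spread at 0 mM KCl was wide. Of 22 genes of pyruvate, ethanol and acetate metabolism 3 were higher (13.6%, near the 12.1% of all tested genes) and 1 lower, with a median of 0.06. Among these, the pyruvate decarboxylase gene *PDC5* was at 25.6, 25.1 and 27.2 RPM against 202, 232 and 205 RPM. *ACH1*, which transfers coenzyme A to acetate, was at 50.7, 31.1 and 34.7 RPM against 239, 224 and 219.7 RPM. Of 16 genes of hexose transport and glucose sensing 3 were lower, 2 were higher and 11 did not pass, with a median of 0.11. Among hexose transporters *HXT2* was at 338, 134 and 266 RPM against 15.7, 36.98 and 7.98 RPM. *HXT7*, the most abundant of them, was at 2028, 301 and 1872 RPM against 185, 361 and 182 RPM, with D50 below D0, a log2 difference of -2.18 ± 0.66, and did not pass without library C50, E50, C0, D0 or E0 (adjusted p up to 0.2).

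Membrane and wall genes divided in both directions. Of 34 ergosterol genes 9 fell and 3 were higher, and of 29 genes of fatty acids and sphingolipids 9 fell and 2 were higher. Without D50 these falls numbered 5 and 7. *OLE1*, the fatty acid desaturase, was at 192, 209 and 241 RPM at 50 mM KCl and 76.9, 79.98 and 79.5 RPM at 0 mM KCl, and *ERG3*, the C-5 sterol desaturase, was at 924, 931 and 1108 RPM against 318, 390.2 and 536 RPM. *AUR1*, of sphingolipid synthesis, changed by -1.91 ± 0.25 (adjusted p = 0.00099) and *ELO1*, a fatty acid elongase, by -1.84 ± 0.21 (adjusted p = 0.0005). Of 36 phospholipid and inositol genes 6 were lower (16.7%) and 4 higher (11.1%), with a median of 0.01. These shares were near the 12.5% and 12.1% of all tested genes. The counts were 1 to 7 and 1 to 5 when each library was left out, fewest without E50 and D50. *INM1*, inositol monophosphatase, rose from 37.6, 30.6 and 33.6 RPM to 112, 65.6 and 125 RPM.

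Of 42 cell wall genes 14 fell and 8 rose, with 8 to 15 and 6 to 10 when each library was left out, both fewest without D50. *GAS3* was at 222, 359 and 343 RPM at 50 mM KCl and 47.3, 58.96 and 26.3 RPM at 0 mM KCl and the glucanase-related gene *SCW10* was at 386, 319.7 and 257 RPM against 96.5, 60.9 and 85.4 RPM. *UTH1*, among the most abundant rises, was at 2878, 2392 and 2290.0 RPM against 8781, 6237 and 10794 RPM, and *SED1*, a structural wall protein of stationary phase, rose by 1.34 ± 0.23 (adjusted p = 0.0034). Of 43 genes of iron, copper and zinc 7 fell (4 without E50) and 2 were higher. The share that fell, 16.3%, was near the 12.5% of all tested genes. *SIT1*, a siderophore transporter gene, was at 185, 192 and 219.8 RPM against 18.5, 23.7 and 18.6 RPM, *FET3*, of high-affinity iron uptake, was at 850.1, 947 and 1022 RPM against 317, 457 and 347 RPM, and *FET4*, of low-affinity metal uptake, rose from 68.9, 58.5 and 57.1 RPM to 178, 172 and 207 RPM. Of 19 efflux genes 6 fell and none rose, with *AQR1* at 71.3, 59.4 and 79.2 RPM against 11.04, 10.8 and 10.5 RPM and the multidrug transporter gene *PDR5* at 225, 168 and 202 RPM against 70.2, 55.6 and 70.1 RPM. Of 29 genes of actin, septins and polarity 3 were lower (10.3%) and 1 higher (3.45%), shares below those of all tested genes. Among them *AXL2*, of the axial pattern of bud-site selection, fell from 68.1, 84.4 and 74.6 RPM to 12.3, 11.2 and 7.82 RPM.

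**Figure D3:**
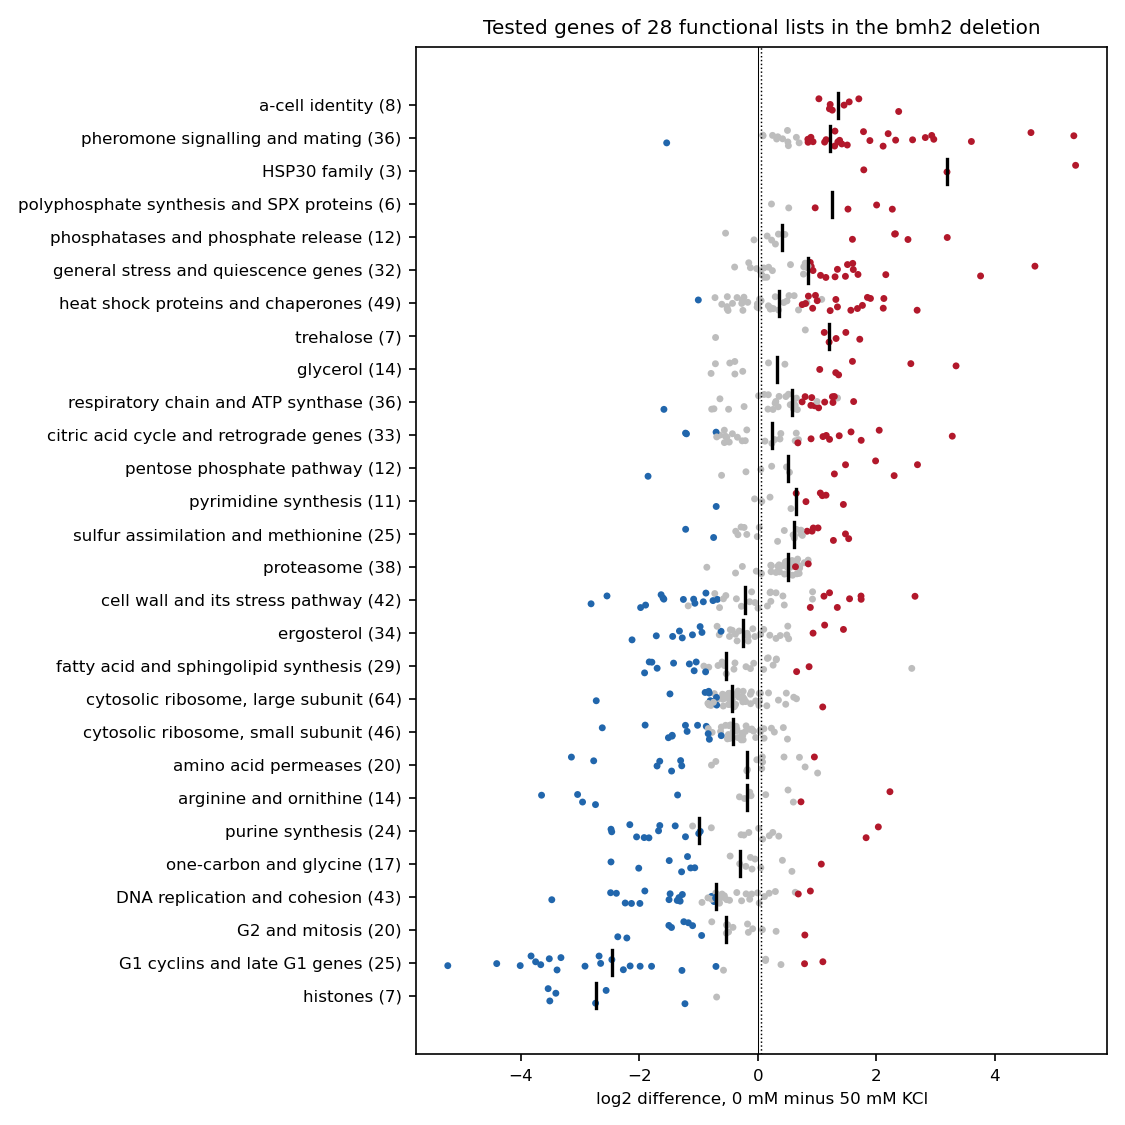
Log2 difference, 0 mM minus 50 mM KCl, of every tested gene in 28 of the lists, 1 dot per gene and coloured where it passed, with a bar at the list's median and a dotted line at the median of all tested genes, 0.04. The late G1 list, with a median of -2.47, and the histone list, with -2.74, lie lowest, and the *HSP30* family, with 3.19, lies highest.

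**Figure D4:**
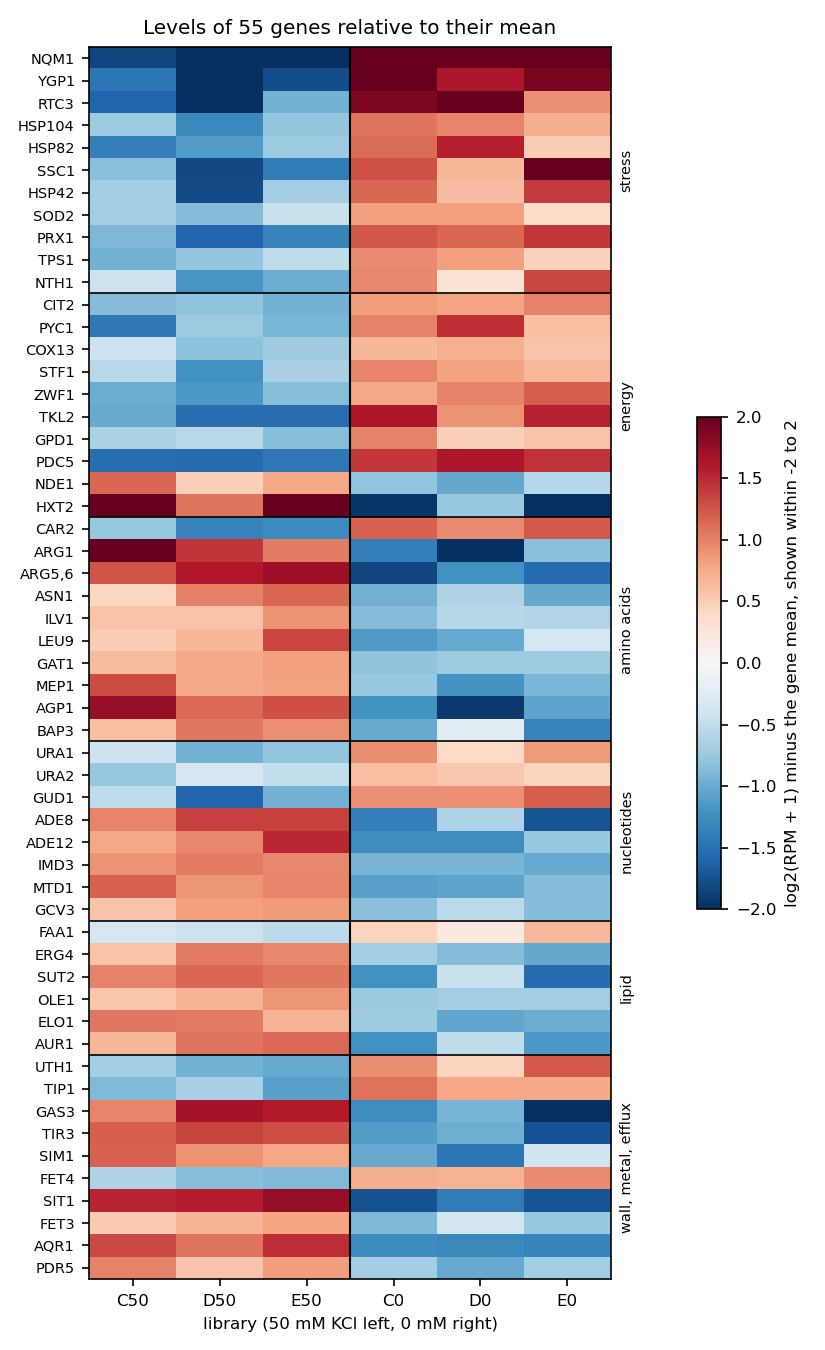
Log2(RPM + 1) minus the gene's mean over the 6 libraries, for 55 genes in 6 blocks by function, 1 column per library. Colours change between the 50 mM and the 0 mM columns in each block, whose genes all passed the test of that difference.

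The 58 lists held 1442 of the 5086 tested genes, 220 of the 616 that rose and 225 of the 638 that fell. Further groups were read from RefSeq's gene ontology terms with experimental evidence, 529 of which had at least 10 tested genes. Those below were picked after their values were seen and are given as description. They share genes with the lists, such as *GAP1* in the first group below and *POL30* and *KAR3* in sister chromatid cohesion, so they are not separate results. Of 20 tested genes placed in COPII vesicles, which carry proteins from the endoplasmic reticulum, 10 fell and none rose, with a median of -0.87. Of 30 genes of protein N-linked glycosylation 12 fell and 2 rose. In each of these groups 6 to 12 fell when each library was left out. *OST5*, of the oligosaccharyltransferase, fell from 25.1, 45.3 and 41.6 RPM to 6.68, 7.65 and 3.56 RPM. Of 46 kinetochore genes 17 fell and 2 rose, and of 23 genes of sister chromatid cohesion 13 fell and 1 rose (10 to 17 and 10 to 14 fell when each library was left out), with medians of -0.42 and -0.92. *SGO1*, the shugoshin gene, was at 49.99, 62.7 and 57.9 RPM against 7.85, 8.23 and 8.29 RPM, and *PDS5*, of cohesin maintenance, was at 249, 195 and 148 RPM against 34.4, 22.1 and 29.98 RPM. Of 14 deubiquitinase genes 6 rose and none fell, and 2 to 5 did so when each library was left out and none with lane as a term. *OTU1*, higher by 1.54 ± 0.35, did not pass without library D50 or E50 (adjusted p up to 0.054), and *DOA4* was higher by 1.43 ± 0.25.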

How the data were processed

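RNA of 12 yeast cultures was measured by NlaIII/MmeI tag sequencing, and 6 libraries of the *bmh2* deletion were used here. The deposited table gives each gene in reads per 1000000 (RPM), as scaled by the authors, and each column sums to 1000000. Not given in the sources used here are the software and genome build of the tag matching and the use of strand, so an antisense or overlapping gene cannot be told apart from its partner. Groups came from the labels and lanes from the column headers. Genes reaching 3 RPM in 3 or more of the 6 libraries were tested with limma 3.58.1 in R 4.3.3 (lmFit, then eBayes with trend and robust) on log2(RPM + 1), two-sided, with Benjamini-Hochberg adjustment at 0.05 over all tested genes. Alternatives were other pseudocounts, filters and scalings, all 12 libraries, a replicate block, lane as a term, each library left out, and voom on whole steps, the last chosen after seeing the data.

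Named genes were the 15 largest rises and falls with a mean of at least 10 RPM in a group and no overlap, up to 5 members per list and direction, and, where fewer than 2 passed, the 2 most abundant. Genes of the ontology groups, *PHO87*, *PHO91*, *URA3*, *STE3* and *ACT1* were added after their values were seen or as controls. Members and lists were chosen with earlier results of these data known. Of 6053 genes, 5567 matched RefSeq's R64 annotation, 44 of them by a synonym. Promoter windows were read for 5557 genes. Python 3.11.15, pandas 2.3.3, NumPy 2.4.6, SciPy 1.17.1 and matplotlib 3.10.9 were used. The fit was tested on simulated data. The 3 replicates of a group limit the precision, and a value of 0 allows up to 0.218 to 0.29 RPM (3 steps, counting error only).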

Additional observations from a re-analysis of the deposited data

How the results depend on the processing

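The 616 genes higher and 638 lower at 0 mM KCl became 612 and 632 with a pseudocount of 0.5, and 615 and 636 with one of 5. They were 533 and 577 of 4496 genes tested with a filter of 10 RPM, 627 and 635 of 5986 without a filter, 615 and 652 after quantile normalization, 600 and 650 with median-of-ratios scaling, 615 and 631 without trend and robust, and 604 and 630 with voom. Fitting all 12 libraries, whose shared spread includes the *bmh1* libraries, gave 161 and 150, and lane as a term gave 194 and 194. Leaving out each library gave 255 to 858 higher and 349 to 757 lower, with 318 and 353 without D50, 350 and 349 without E50, and 255 and 357 without C0, against 858 and 757 without D0. Why these libraries weigh so much was not tested. No call changed sign under any of the 17 alternatives, in which 80 of the higher and 116 of the lower genes always passed, and 236 and 294 passed with each library left out in turn. Of 299 named genes that passed, 180 no longer did with all 12 libraries, 155 with lane as a term and 93 without C0. The culture letters do not pair the samples by their deviations from the group means, with correlations of 0.07 for C, 0.27 for D and -0.3 for E, and a replicate block by letter gave 636 higher and 606 lower. A count model was not run, because whole reads could not be claimed for the RPM values. With 3 libraries a group, differences under 0.6 on the log2 scale did not pass.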

Other observations

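Proteins of Ty elements, the retrotransposons of yeast, formed a further group of high transcripts, picked after their values were seen. Of 28 gag and gag-pol reading frames 17 were tested, and 12 rose while none fell, with a median log2 difference of 1.13. Their summed level was 18073, 15708 and 15438 RPM at 50 mM KCl and 43446, 30910.5 and 63222 RPM at 0 mM KCl, so that every 0 mM library was above every 50 mM library. Most of it came from *YAR009C* at 11734, 10051 and 10031 RPM against 23900.3, 16705 and 38737 RPM. *YBL100W-B* was at 3197, 2788 and 2955 RPM against 6701, 4272 and 9701 RPM, and *YBL005W-B* at 1809, 1466 and 1407 RPM against 9507, 7021 and 11091 RPM. From 6 to 11 passed when each library was left out, and 5 with lane as a term. *YAR009C* and *YBL100W-B* did not pass without library D50, E50 or C0, with lane as a term or with all 12 libraries. The Ty copies are near-identical, so the division of reads among them is uncertain.

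*ORM2*, a regulator of sphingolipid synthesis, was at 2.40, 2.65 and 2.32 RPM at 50 mM KCl and 496, 3.16 and 3.41 RPM at 0 mM KCl. The single high value was in C0, and no other gene reached 100 RPM in 1 library while being at least 20-fold above its next library. It did not pass the test (adjusted p = 0.26).

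The uncharacterised reading frames *YER053C-A* and *YBR085C-A* were at 5.44, 6.15 and 5.22 RPM against 277, 179 and 306 RPM and 29.9, 12.3 and 23.95 RPM against 365, 294 and 278 RPM, and their log2 differences were 5.24 ± 0.25 (adjusted p = 6.9e-06) and 3.84 ± 0.31 (adjusted p = 9.9e-05). *RTC3*, a gene of RNA metabolism and stress, was at 238, 114 and 371 RPM against 2623, 3744 and 1346 RPM. All 3 had groups that did not overlap, where 20.3% of tested genes were higher in every 0 mM library.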
